A study of Rattus norvegicus with 24 samples.

Results

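Pericytes are the contractile cells wrapped around capillaries, and mesoangioblasts (MABs) are vessel-associated progenitors grown from skeletal muscle that share many of their surface proteins. The genes described here are 9 markers of both: Alpl, Cspg4, Pdgfrb, Pdgfra, Rgs5, Mcam, Anpep, Kcnj8 and Abcc9, taken by symbol from the 32883 genes of the deposited table, in which each of the 9 symbols occurred in 1 row. They were measured in 24 urethras of 12-week-old virgin female Sprague-Dawley rats, all of which had undergone simulated vaginal delivery (SVD), a pudendal nerve crush with vaginal distension. Rats received an intra-aortic injection of saline, of allogeneic MABs (MABs allo) or of allogeneic MABs made to overproduce VEGF (MABs allo-VEGF), and urethras were taken at 3d or 7d, giving 6 groups of 4. The host rats were wild type, and the label "VEGF OE" of the MABs allo-VEGF samples refers to the injected cells.

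The injected cells limit what these genes can show. MABs came from a muscle biopsy of a donor rat other than the recipient, were sorted for alkaline phosphatase activity, the product of Alpl, and were used as a single line. The authors describe a lentiviral reporter for tracking MABs, and for MABs allo-VEGF a vector encoding VEGF and a truncated CD34. They also call MABs allo untransduced, and whether all cells injected into these rats carried the reporter is not stated. No uninjured urethra and no cultured MABs were analysed here, so that a marker transcript of an injected cell and one of a resident cell could not be told apart.

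A pericyte sits in the basement membrane of a small vessel and depends on platelet-derived growth factor from the endothelium, which it receives through the receptor encoded by Pdgfrb. Together with the smooth muscle cells of larger vessels it forms the mural layer, which controls vessel calibre and stability. None of the 9 markers belongs to pericytes alone. Pdgfra is the receptor typical of fibroblasts and mesenchymal progenitors. Anpep is also found on myeloid and some epithelial cells, and Mcam also on endothelium and smooth muscle.

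All 9 markers were detected in all 24 libraries, with between 23 and 2217 reads per gene and library. Sequencing was shallower in the cell-treated urethras at 3d (2170695 to 4491900 reads) than in the saline ones at 3d (4851797 to 5249467) and in all 7d libraries (5244129 to 10166052). Skeletal muscle Acta1 ranged from 13828 to 131704 normalized counts, smooth muscle Acta2 from 9536 to 144662 and basal epithelial Krt5 from 483 to 10434, so that each layer of the urethra was represented. At 3d, replicate 6 of saline and replicate 4 of MABs allo-VEGF stood apart from their groups: Cd34 measured 771 normalized counts in the first against 15.7 to 32.2 in the other saline libraries at 3d, and 57.9 in the second against 249 to 783 in the other MABs allo-VEGF libraries at 3d. The Cd34 level of the first lies within the 174 to 1373 of the MABs allo libraries at 3d, and that of the second between the saline and the cell-treated ranges. Whether the labels of these 2 libraries are right was not tested, and the labels were kept. The 2 were picked from the values of these data, and in Cd34 each lay toward the opposite arm. Leaving them out can therefore widen differences between cell-treated and saline urethras. Without them the share of all genes called with MABs allo-VEGF against saline at 3d went from 0.0307% to 13.6% (limma). The 3d results that change a call without them are also given for the other 22 samples, as a description and not as separate support. Replicate 8 of saline and replicate 2 of MABs allo-VEGF, also at 3d, were low in epithelium, with 4492 and 5042 normalized counts summed over 13 epithelial genes against 48063 to 145176 in the other 3d libraries.

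The 9 markers differed in how evenly they were measured. Averaged over the 6 groups, the coefficient of variation between the 4 libraries of a group was lowest for Abcc9 (26.6%) and Cspg4 (30.0%), and highest for Pdgfra (41.8%) and Alpl (47.9%). From the lowest to the highest of the 24 libraries, Pdgfra spanned 9.5-fold, Rgs5 8.83-fold and Alpl 8.8-fold, whereas Pdgfrb spanned 3.49-fold. The plot of normalized counts by group shows that for most markers the spread within a group was as wide as the distance between groups.

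**Figure D1:**
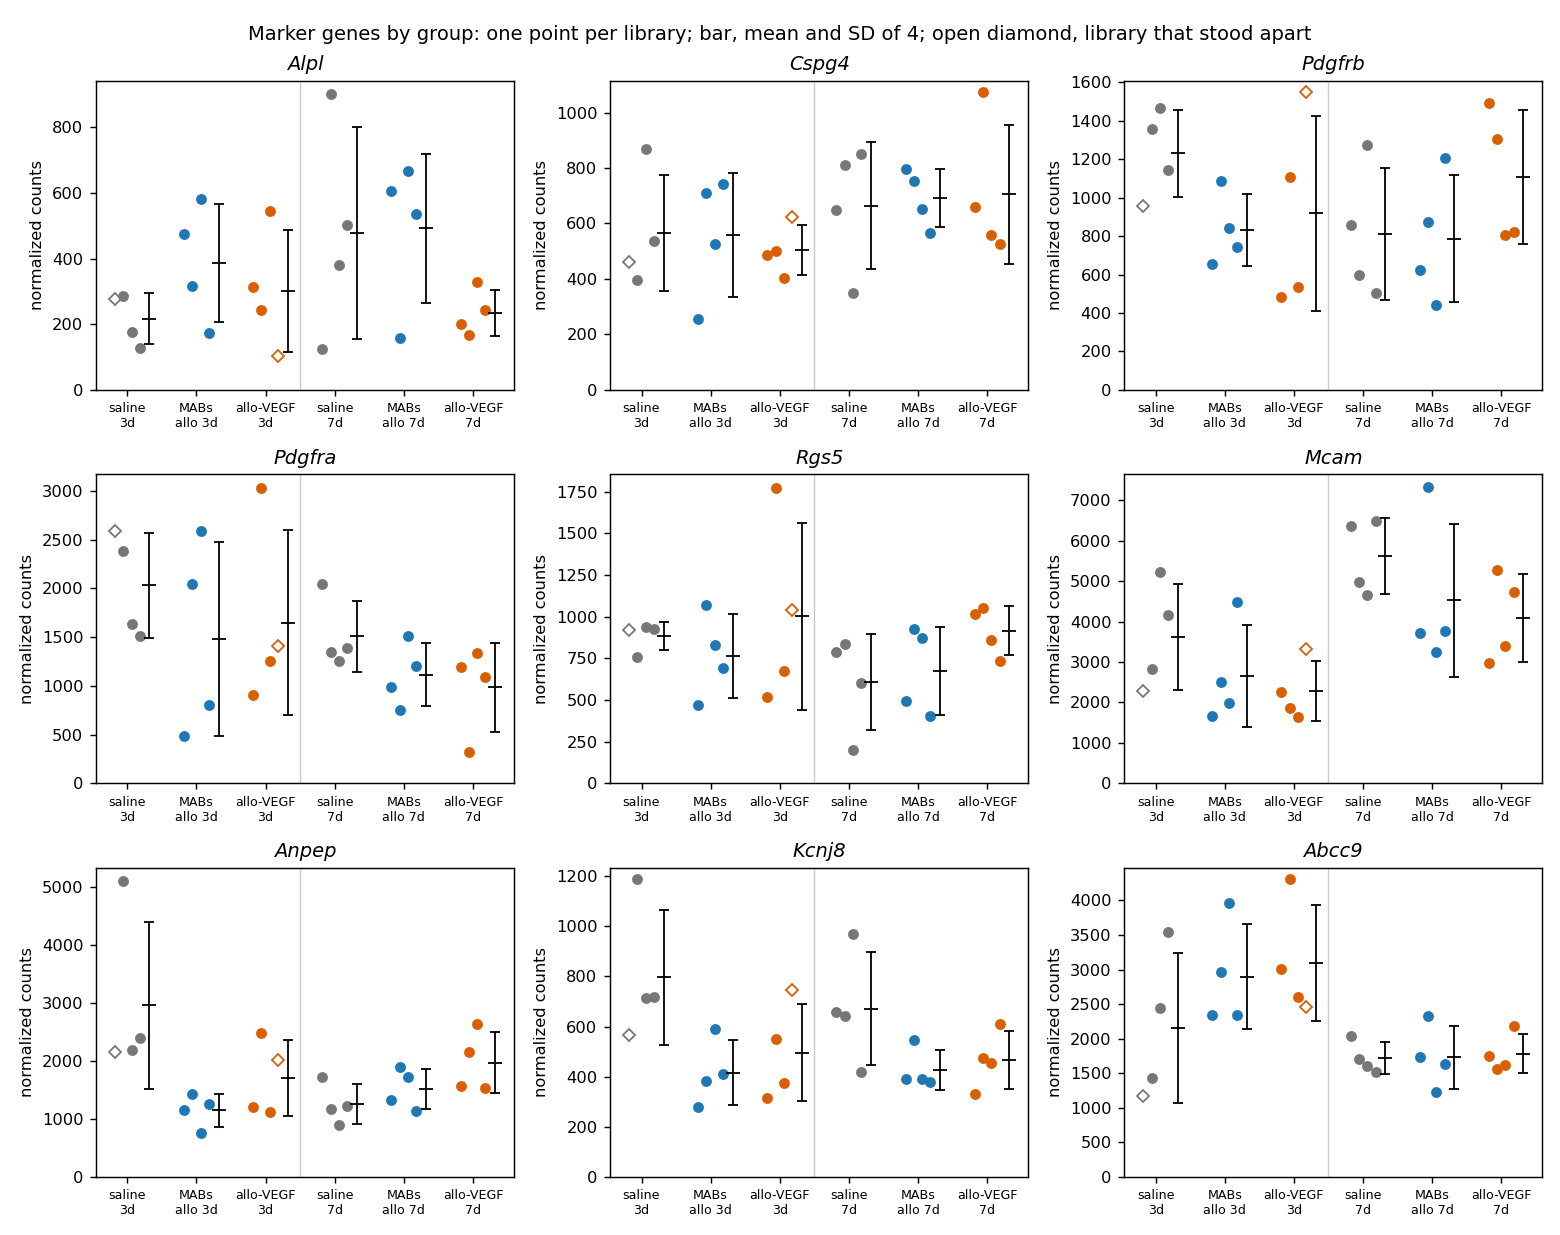
Normalized counts (reads divided by the DESeq2 size factor of the library; linear axis from 0) of the 9 markers in each of the 6 groups. Each point is 1 library, the bar beside it gives mean and SD of the 4 libraries, and open diamonds mark the pair of 3d libraries that stood apart. Anpep of all 4 MABs allo libraries at 3d (757 to 1417) lies under all 4 saline libraries at 3d (2145 to 5103).

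The question put to the 3d samples was whether urethras that had received MABs held more or less of these transcripts than urethras that had received saline. Anpep fell with MABs allo, to 0.405 times the saline level, and was the 1 marker of 9 called, that is with an adjusted p under 0.05 and a log2 fold change beyond 1 in limma. Over all 16287 genes tested, 12.3% were called in that comparison (9.4% higher and 2.86% lower), which put the higher share of the calls at 76.7%. That split was 56.2% higher after quantile normalization and 51.9% after scaling all libraries to the same total, which put the median gene at -0.14 and -0.19 on the log2 scale in place of 0.07, and Anpep at -1.40 and -1.58. With MABs allo-VEGF 0 of 9 markers were called at 3d, where 0.0307% of all genes were (limma). At an unadjusted p under 0.05 there were 3 of 9 markers, Anpep, Kcnj8 and Abcc9, against 17.9% of all genes. DESeq2 on the recovered reads called none of the 9 and 388 of all genes. By sign alone, 7 of 9 log2 fold changes were negative with MABs allo and 6 with MABs allo-VEGF. In other settings Cspg4 turned sign with both, and Rgs5 and Alpl with MABs allo-VEGF. The median log2 fold change of the 9 markers was -0.48 with MABs allo and -0.41 with MABs allo-VEGF, against 0.07 and 0.04 for all genes. Both comparisons share the 4 saline libraries. A bulk library cannot tell fewer cells of a type from less RNA per cell.

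**Figure D2:**
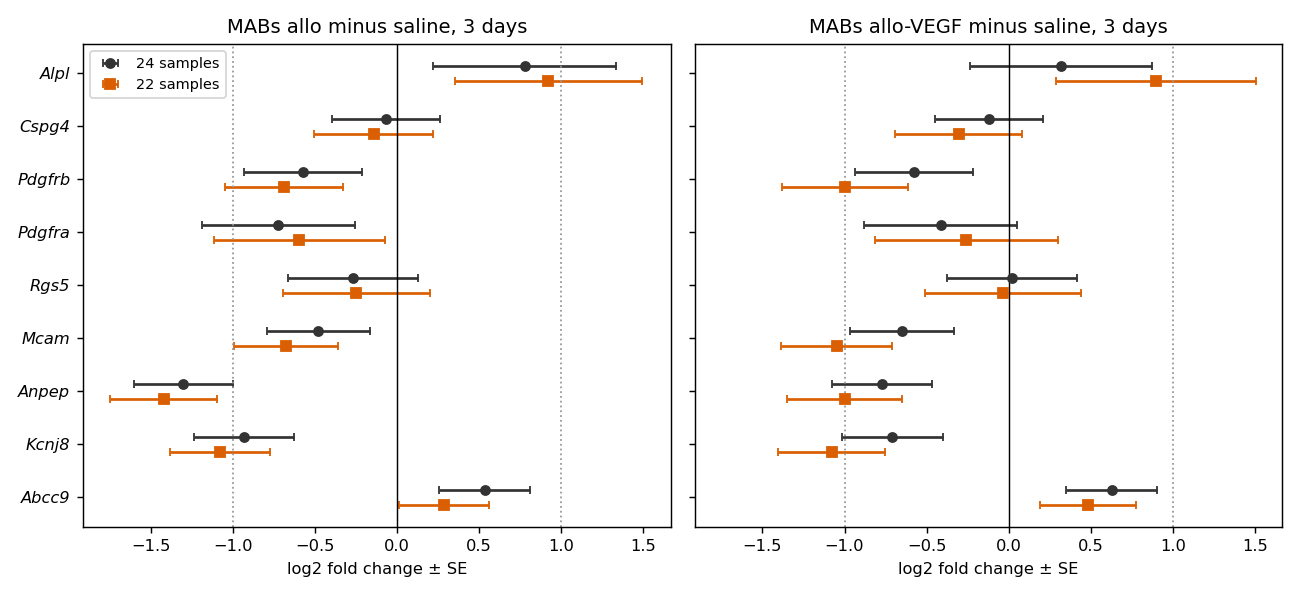
Log2 fold change (x axis, with its standard error from limma) of the 9 markers in MABs allo (left) and MABs allo-VEGF (right) against saline at 3d, from all 24 samples (circles) and from the 22 left without saline replicate 6 and MABs allo-VEGF replicate 4 (squares); dotted lines mark the fold threshold of 1. Anpep and Kcnj8 lie furthest to the left with MABs allo, at -1.30 and -0.93 from 24 samples, and Alpl and Abcc9 lie to the right of 0 in both panels.

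Anpep encodes aminopeptidase N (CD13), a membrane enzyme that trims peptides and marks pericytes as well as many stromal and myeloid cells. At 3d it measured 2145, 5103, 2187 and 2386 normalized counts in the saline libraries (replicates 6, 8, 9 and 10). With MABs allo it measured 1150, 1417, 757 and 1248 (replicates 1 to 4). The groups did not overlap, and replicate 8 was far above the other 3 saline libraries. The log2 fold change was -1.30 (SE 0.30; adjusted p = 0.0106, limma), and -1.42 (adjusted p = 0.00373) in the 22 samples, in which 18.1% of all genes were called.

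Replicate 8 mattered to this call. Without it the change was -1.005 (adjusted p = 0.0576), just past the fold threshold but not the p threshold. Without both 3d libraries low in epithelium, a choice made after the values were seen, the change was the same and its adjusted p 0.0435. Fitted on the 8 libraries of the 2 groups alone, the same change of -1.30 had an adjusted p of 0.0646. With MABs allo-VEGF at 3d, Anpep measured 1200, 2475, 1120 and 2017 (replicates 1 to 4), the range of which overlapped with that of saline (log2 fold change -0.77, SE 0.30, adjusted p = 0.174). In the 22 samples, in which 13.6% of all genes were called in that comparison, the change lay at the fold threshold and did not pass the p threshold in limma (adjusted p = 0.0547), whereas DESeq2 on them called it (-1.02, adjusted p = 0.0377).

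Genes of other cells moved in the same libraries, though not all in the same direction. The summed level of 15 myeloid genes was 3926 to 24827 normalized counts with MABs allo at 3d against 30567 to 63137 with saline, and that of 14 fibroblast genes 68857 to 355723 against 385642 to 589207, with no gene of either list at 0 throughout a 3d group. In limma 5 of 15 myeloid and 5 of 14 fibroblast genes fell and none rose, where 2.86% of all genes fell and 9.4% rose. Urothelial and squamous epithelial genes leaned the other way, and whether these cells carry CD13 was not tested. Of 13 such genes 1 rose and 0 fell, with a median log2 fold change of 1.02. The part of these cells in the fall of Anpep was not tested.

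The promoter of Anpep is shown because Anpep was the only marker called between treatments in the main limma fit to all samples. Those of Kcnj8 and Abcc9 are shown because these neighbouring genes encode the pore and the regulatory subunit of a channel. The log2 fold changes of this pair against saline differed in sign at 3d. Neither gene was called there in the main fit, and the values of both overlapped with those of saline. The promoter of Alpl is shown because Alpl marks the injected cells. The sequences are from RefSeq on GRCr8, a later build than the one the reads were aligned to, and run from 250 bases before to 50 after each start, 5′ to 3′ on the gene's strand (the minus strand in all 4). They lie at chr1:143195052-143195351 (Anpep), chr4:177246499-177246798 (Kcnj8), chr4:177386299-177386598 (Abcc9) and chr5:155289736-155290035 (Alpl). Capitals mark matches, on either strand, to any of the 5 short motifs named after them, and no match overlapped with one of another motif.
Anpep: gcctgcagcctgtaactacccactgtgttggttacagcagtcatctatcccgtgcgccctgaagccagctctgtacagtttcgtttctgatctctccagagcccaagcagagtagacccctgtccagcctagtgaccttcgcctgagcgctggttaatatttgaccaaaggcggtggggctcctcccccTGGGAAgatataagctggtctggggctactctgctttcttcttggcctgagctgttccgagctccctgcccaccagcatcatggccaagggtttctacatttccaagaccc
Kcnj8: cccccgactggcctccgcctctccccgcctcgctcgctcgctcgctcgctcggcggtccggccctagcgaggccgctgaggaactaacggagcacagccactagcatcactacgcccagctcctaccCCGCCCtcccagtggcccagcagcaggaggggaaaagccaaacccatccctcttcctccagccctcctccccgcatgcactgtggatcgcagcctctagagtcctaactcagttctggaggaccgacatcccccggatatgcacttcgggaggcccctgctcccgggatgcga
Abcc9: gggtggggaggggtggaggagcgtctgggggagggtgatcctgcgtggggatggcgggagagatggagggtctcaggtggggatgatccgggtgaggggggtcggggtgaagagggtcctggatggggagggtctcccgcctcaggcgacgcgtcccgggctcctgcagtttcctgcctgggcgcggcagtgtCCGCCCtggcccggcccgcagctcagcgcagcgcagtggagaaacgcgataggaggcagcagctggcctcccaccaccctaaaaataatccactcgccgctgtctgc
Alpl: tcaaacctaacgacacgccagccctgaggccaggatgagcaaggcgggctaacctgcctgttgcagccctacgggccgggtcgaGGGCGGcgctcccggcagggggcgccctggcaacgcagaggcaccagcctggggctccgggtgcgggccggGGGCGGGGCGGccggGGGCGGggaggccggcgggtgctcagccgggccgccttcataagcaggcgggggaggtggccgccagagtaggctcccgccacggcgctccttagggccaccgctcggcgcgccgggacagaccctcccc

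Of the 9 markers 7 had a promoter in that table. A GC box (letters GGGCGG) was present in 5 of those 7, namely Alpl, Cspg4, Rgs5, Kcnj8 and Abcc9, against 34.9% of all 27457 promoters of this length. In Alpl it occurred 4 times, and 76.3% of the bases of that promoter were G or C against a median of 52.3% over all promoters. The letters of RBPJ, the factor that works with Notch receptors, were TGGGAA and were present in Anpep alone of the 7 (25.1% of all promoters), and the other 3 motifs were found in none of the 7. These were a TATA box, read as TATAAA and held by 14.3% of all promoters, a TEAD motif, read as CATTCC and held by 13.9%, and a hypoxia response core, read as ACGTG and held by 19.7%. A match is a run of letters and was not tested as a binding site.

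Kcnj8 and Abcc9 encode Kir6.1 and SUR2, the pore and the sulfonylurea receptor of the ATP-sensitive potassium channel of mural cells, which relaxes vessels when it opens. Kcnj8 measured 565, 1188, 715 and 718 normalized counts in the saline libraries at 3d. It measured 277, 383, 591 and 412 with MABs allo and 314, 550, 373 and 748 with MABs allo-VEGF. With MABs allo only replicate 3 reached into the saline range, and with MABs allo-VEGF only replicate 4, which is 1 of the libraries that stood apart.

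The change of Kcnj8 with MABs allo was -0.93 (SE 0.31; adjusted p = 0.0421, limma), which passed the p threshold but not the fold threshold. Over the same samples it was called with edgeR (-1.03, adjusted p = 0.0343). In limma it was also called after quantile normalization (-1.09, adjusted p = 0.0241) and after scaling to the same total (-1.21, adjusted p = 0.0199). It was not called with DESeq2 (-0.945, adjusted p = 0.0273) or in limma on the compared groups alone (-0.93, adjusted p = 0.105). In the 22 samples the change of Kcnj8 was -1.08 with MABs allo (adjusted p = 0.0149) and -1.08 with MABs allo-VEGF (adjusted p = 0.0279), and both were called. In all 24 samples the change with MABs allo-VEGF was -0.71 (adjusted p = 0.22). Without both 3d libraries low in epithelium the change with MABs allo was -0.72 (adjusted p = 0.173), and without saline replicate 6 alone or MABs allo replicate 3 alone it was called, at -1.08 (adjusted p = 0.0223) and -1.12 (adjusted p = 0.043).

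Abcc9 did not follow its partner. It measured 1171, 1435, 2444 and 3551 normalized counts with saline at 3d, 2336, 2960, 3960 and 2338 with MABs allo, and 3012, 4309, 2608 and 2453 with MABs allo-VEGF. The 2 lowest libraries of the 12 at 3d were saline replicates 6 and 8. The log2 fold change was 0.53 (SE 0.28; adjusted p = 0.193) with MABs allo and 0.63 (SE 0.28; adjusted p = 0.235) with MABs allo-VEGF, and neither was called. Over the 22 samples these were 0.29 (adjusted p = 0.482) and 0.48 (adjusted p = 0.289), and without both libraries low in epithelium 0.39 (adjusted p = 0.432) and 0.31 (adjusted p = 0.875).

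The relation between the pair was looked at within each library, a measure chosen after both genes' values were seen and given with no test. Kcnj8 stood at 20.2% to 82.8% of the Abcc9 normalized count in saline libraries at 3d and at 11.9% to 17.6% with MABs allo, with no overlap. With MABs allo-VEGF it was 10.4% to 14.3% in replicates 1 to 3 and 30.5% in replicate 4. At 7d the ranges were 27.7% to 60.8% with saline, 22.4% to 31.7% with MABs allo and 18.8% to 30.2% with MABs allo-VEGF, and all 3 overlapped. The counts come from the 3′ ends of transcripts, and the percentage compares libraries, not the abundance of the 2 subunits. The summed level of the other subunits of this channel family, Kcnj11 and Abcc8, was 41 to 259 normalized counts with saline at 3d and 128 to 548 with MABs allo, and 0 of these 2 genes were called at 3d.

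**Figure D3:**
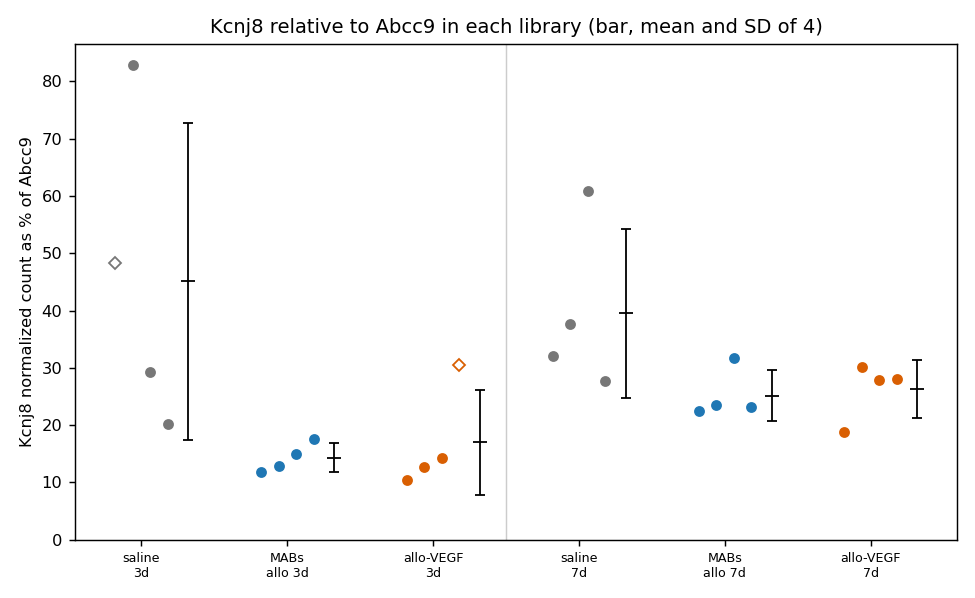
Kcnj8 normalized count as a percentage of the Abcc9 normalized count (linear axis from 0) in each library of the 6 groups, with mean and SD of 4 beside the points and open diamonds for the libraries that stood apart. The 4 MABs allo libraries at 3d lie between 11.9% and 17.6%, under all 4 saline libraries of that day, of which the lowest is at 20.2%.

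Alpl encodes tissue-nonspecific alkaline phosphatase, the enzyme by which the injected cells had been sorted. At 3d it measured 275, 286, 175 and 127 normalized counts with saline, 476, 317, 582 and 174 with MABs allo, and 314, 242, 545 and 102 with MABs allo-VEGF. Of the 4 MABs allo libraries 3 were above every saline library, and replicate 4 was not. Alpl was not called in any comparison of all samples at equal weight: the log2 fold change at 3d was 0.78 (SE 0.56; adjusted p = 0.35) with MABs allo and 0.32 (SE 0.56; adjusted p = 0.815) with MABs allo-VEGF. It also rested on the fewest reads, 23 to 108 in the 3d cell-treated libraries.

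At 7d Alpl measured 125 to 901 normalized counts in saline urethras (mean 478 ± 323 SD, n = 4) and 159 to 666 with MABs allo (mean 492 ± 228). With MABs allo-VEGF it was 168 to 329 (mean 235 ± 69.8), and the difference from MABs allo was -0.92 on the log2 scale (SE 0.56; adjusted p = 1). In saline urethras Alpl was -0.91 at 3d relative to 7d (SE 0.56; adjusted p = 0.401), and with libraries weighted by quality -1.45 (adjusted p = 0.0373), a call. The other alkaline phosphatase genes in the table, Alpi, Alpg and Alpp, summed to 0 to 15 normalized counts in every library, and none of these 3 passed the filter on low values.

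Pdgfrb, Cspg4, Rgs5 and Pdgfra were not called at 3d in all samples or in the 22. Pdgfrb, the receptor for endothelial platelet-derived growth factor, measured 1231 ± 227 normalized counts (SD, n = 4) with saline, 831 ± 188 with MABs allo and 918 ± 508 with MABs allo-VEGF. The last spread reflects its libraries: 481, 1108, 535 and 1550, of which the highest, replicate 4, was above every saline library. The log2 fold change was -0.57 (SE 0.36; adjusted p = 0.28) with MABs allo and -0.57 (SE 0.36; adjusted p = 0.415) with MABs allo-VEGF, the latter moving to -0.998 (adjusted p = 0.0794) in the 22 samples.

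Cspg4, the NG2 proteoglycan of the pericyte surface, had the smallest change with MABs allo. It measured 566 ± 210 normalized counts with saline at 3d, 559 ± 224 with MABs allo and 503 ± 90.6 with MABs allo-VEGF. The log2 fold changes of -0.07 (adjusted p = 0.914) and -0.12 (adjusted p = 0.89) had standard errors of 0.33. Rgs5, a regulator of G protein signalling used as a marker of activated pericytes, measured 886 ± 84.4, 767 ± 253 and 1002 ± 560, with log2 fold changes of -0.27 (SE 0.40; adjusted p = 0.681) and 0.02 (SE 0.40; adjusted p = 0.989), the second of which was -0.22 after scaling to the same total. Its saline libraries at 3d were the most even of any marker and group, with a coefficient of variation of 9.52%.

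Mcam encodes CD146, an adhesion molecule of pericytes, smooth muscle and endothelium. At 3d it measured 2279, 2838, 5214 and 4152 normalized counts with saline, 1669, 2511, 1976 and 4486 with MABs allo, and 2255, 1867, 1650 and 3317 with MABs allo-VEGF. The ranges overlapped, and the highest library of the 12 was a saline one. With MABs allo-VEGF the log2 fold change was -0.65 (SE 0.32; adjusted p = 0.279) in all samples and -1.05 (adjusted p = 0.0378), a call, in the 22 samples. With MABs allo it was -0.48 (SE 0.32; adjusted p = 0.306).

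Pdgfra, the receptor that marks fibroblasts and mesenchymal progenitors more than pericytes, was widely scattered at 3d after cell injection. It measured 2593, 2383, 1637 and 1513 normalized counts with saline, 483, 2046, 2585 and 803 with MABs allo, and 908, 3034, 1251 and 1407 with MABs allo-VEGF. The log2 fold change was -0.72 (SE 0.47; adjusted p = 0.295) and -0.41 (SE 0.47; adjusted p = 0.69).

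Set against MABs allo at 3d, MABs allo-VEGF gave no marker call: 0 of 9 markers were called, against 0.00614% of all genes, and 0 had an unadjusted p under 0.05, against 6.13% of all genes. With DESeq2 none of the 9 and 0 of all genes were called. The log2 fold changes lay between -0.46 (Alpl, SE 0.56) and 0.53 (Anpep, SE 0.30; adjusted p = 0.846). Vegfa itself, the gene of the vector, differed by -0.73 between these groups (SE 0.26; adjusted p = 0.662). Whether reads from the vector could be counted on the rat gene is not given in the sources used here.

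At 7d the markers did not separate the treatments. In each of the 3 comparisons 0 of 9 were called, and 0% of all genes were (limma). The shares of all genes with an unadjusted p under 0.05 were 6.23% (MABs allo against saline), 6.34% (MABs allo-VEGF against saline) and 2.78% (MABs allo-VEGF against MABs allo). There was 1 such marker in the 3 comparisons, Anpep with MABs allo-VEGF, at 1535 to 2629 normalized counts against 891 to 1715 with saline (log2 fold change 0.66, SE 0.30, adjusted p = 0.76). DESeq2 called none of the 9 in these comparisons, and 0, 27 and 4 of all genes. Rgs5 was 0.77 higher with MABs allo-VEGF than with saline (SE 0.40; adjusted p = 0.782), and Pdgfra 0.77 lower (-0.77, SE 0.47; adjusted p = 0.831). Kcnj8 was -0.61 with MABs allo (SE 0.31; adjusted p = 0.814), at 378 to 546 normalized counts against 418 to 971 with saline.

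Of the 4 MABs allo-VEGF rats at 7d, the labels name replicates 6 and 7 as recovered. Pdgfrb measured 1495 and 1306 normalized counts in these and 807 and 820 in the other pair. Rgs5 measured 1019 and 1053 against 863 and 731, Cspg4 660 and 1073 against 559 and 526, and Alpl 200 and 168 against 329 and 243. In the other 5 markers the pairs overlapped. Of all 16287 genes tested 32.3% did not overlap between these pairs, a share the 4 of 9 markers lie near. With 2 samples on each side no test was made.

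The course from 3d to 7d was then compared within each treatment. In saline urethras Anpep was 2.26 times as high at 3d as at 7d, where it measured 1715, 1175, 891 and 1223 normalized counts (replicates 1, 2, 3 and 5). All 4 libraries at 3d were above all 4 at 7d, and Anpep was the 1 marker of 9 called, against 3.19% of all genes (log2 fold change 1.18, SE 0.30, adjusted p = 0.0323). DESeq2 also called it, in all samples (1.24, adjusted p = 0.00269, with 1383 of all genes called) and in the 22 (1.37, adjusted p = 0.00485). With limma the call did not hold in the 22 samples (1.29, adjusted p = 0.0776, with 0.19% of all genes called), nor without any 1 of the 4 saline libraries at 3d or of replicates 2, 3 and 5 at 7d (0.88 to 1.29, adjusted p 0.0519 to 0.102). With libraries weighted by quality (0.95, adjusted p = 0.00338) or without both 3d libraries low in epithelium (0.88, adjusted p = 0.0371) it fell under the fold threshold.

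With cells, Anpep did not show this course: it was -0.42 at 3d relative to 7d with MABs allo (SE 0.30; adjusted p = 0.317) and -0.25 with MABs allo-VEGF (SE 0.30; adjusted p = 0.595). The difference between days of the effect of cells on Anpep was -1.59 (SE 0.43; adjusted p = 0.189) for MABs allo and -1.43 (SE 0.43; adjusted p = 0.494) for MABs allo-VEGF. In both of these interaction tests 0 of 9 markers and 0% of all genes were called in limma, with 1 and 2 markers at an unadjusted p under 0.05 against 13.6% and 8.23% of all genes. DESeq2 called Anpep in the first (-1.65, adjusted p = 0.048) and no marker in the second, with 72 and 1 of all genes called. In the 22 samples, in which 3.56% and 3.59% of all genes were called, Anpep was called in both (-1.71, adjusted p = 0.0365, and -1.66, adjusted p = 0.0488). The difference in course was therefore seen in some fits and not in others.

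Mcam was lower at 3d than at 7d under all 3 treatments, by -0.69 with saline (adjusted p = 0.232), -0.79 with MABs allo (adjusted p = 0.0589) and -0.86 with MABs allo-VEGF (adjusted p = 0.0559), each with a standard error of 0.32. At 7d it measured 4662 to 6487 normalized counts with saline, 3255 to 7341 with MABs allo and 2964 to 5266 with MABs allo-VEGF. None of these was called in the main limma fit to all samples. In the 22 samples the difference with MABs allo-VEGF was -1.06 (adjusted p = 0.0163), a call, where 20.3% of all genes were called. It was also called without MABs allo-VEGF replicate 4 at 3d or replicate 6 at 7d (-1.06 and -1.002, adjusted p = 0.0209 and 0.0458), and with MABs allo without its replicate 4 at 3d (-1.08, adjusted p = 0.0109). Smooth muscle also expresses Mcam. The sum of 14 smooth muscle genes was 39694 to 250969 normalized counts at 3d and 199125 to 388243 at 7d with saline, 121455 to 189888 and 251067 to 282649 with MABs allo, and 92612 to 170481 and 148556 to 347070 with MABs allo-VEGF. Within the list 0 of 14 were called higher and 2 lower at 3d with saline, 1 and 2 with MABs allo, and 1 and 1 with MABs allo-VEGF. Of all genes 3.19%, 23% and 15.3% were called in these comparisons. The part of smooth muscle in the course of Mcam was not tested.

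Abcc9 was higher at 3d than at 7d after cell injection. With MABs allo it measured 1741, 2328, 1226 and 1635 normalized counts at 7d, all under the 2336 to 3960 of 3d, and with MABs allo-VEGF 1752, 1566, 1623 and 2185, all under the 2453 to 4309 of 3d. The log2 fold changes were 0.74 (SE 0.28; adjusted p = 0.0455) and 0.77 (SE 0.28; adjusted p = 0.052), under the fold threshold. They lay at percentiles 68.9 and 71.0 of the changes of all genes. In saline urethras the change of Abcc9 was 0.20 (SE 0.28; adjusted p = 0.764). The interaction with treatment was 0.55 (adjusted p = 0.553) for MABs allo and 0.58 (adjusted p = 0.731) for MABs allo-VEGF. With MABs allo 0 of 9 markers were called between days against 23% of all genes, and with MABs allo-VEGF 0 of 9 against 15.3% (limma). At an unadjusted p under 0.05 there were 2 of 9 markers in each, Mcam and Abcc9, against 40.9% and 33.4% of all genes. DESeq2 called none of the 9 in either comparison, and 3720 (MABs allo) and 2836 (MABs allo-VEGF) of all genes.

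**Figure D4:**
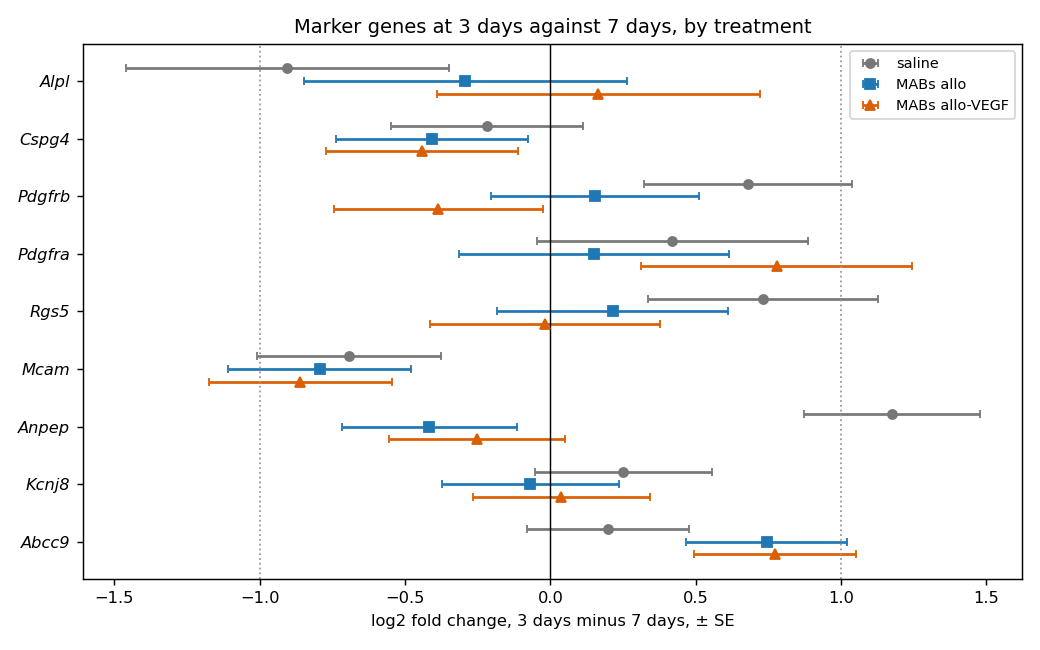
Log2 fold change of 3d against 7d (x axis, with its standard error from limma, all 24 samples) of the 9 markers in saline, MABs allo and MABs allo-VEGF urethras; dotted lines mark the fold threshold of 1. Anpep is at 1.18 with saline and left of 0 with both cell treatments, and Mcam is left of 0 with all 3.

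Other mural genes were taken as a separate list of 31, of which 27 passed the filter on low values. With MABs allo at 3d, 3 of 27 rose and 0 fell, against 9.4% and 2.86% of all genes, and in the 22 samples 4 rose and 2 fell. The 3 were Notch3, the receptor that maintains mural cells (log2 fold change 5.45, adjusted p = 0.00717), the phosphodiesterase Pde5a (3.56, adjusted p = 0.00792) and the gap junction gene Gjc1 (1.43, adjusted p = 0.0325). The other 24 were not called, and the list's median was -0.19. With MABs allo-VEGF 0 of 27 were called in all samples (median -0.18), where 5 of 16287 genes were, and in the 22 samples 3 rose and 1 fell, where 13.6% of all genes were called. Zic1 and Cd248, a pericyte marker also called endosialin, were at 0 throughout all 6 groups. Whether reads from the 3′ ends of these genes could be counted was not tested, so their absence from the tissue is not shown.

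Of 21 genes for signals to mural cells, 1 rose and 2 fell with MABs allo at 3d, where 9.4% of all genes rose and 2.86% fell. Tgfbr2, a receptor for TGF-beta, rose (2.37, adjusted p = 0.0175). The endothelial receptor Tie1 (-1.33, adjusted p = 0.0142) and the sphingosine phosphate receptor S1pr3 (-1.84, adjusted p = 0.0487) fell. Of the 21, 1 rose and 4 fell in the 22 samples, in which 18.1% of all genes were called. With MABs allo-VEGF 0 of 21 were called in all samples. In the 22 samples 1 rose and 2 fell, where 13.6% of all genes were called. Of 16 other surface genes used to describe mesoangioblasts and mesenchymal progenitors, 3 rose with MABs allo and 0 fell, against 9.4% and 2.86% of all genes. They were Itga4 (3.45, adjusted p = 0.0232), Cd34 (3.31, adjusted p = 0.0273) and Peg3 (1.34, adjusted p = 0.0108), with a list median of 0.22. With MABs allo-VEGF 0 of 16 were called in all samples and 3 rose in the 22. This list holds Cd34, in which the libraries left out had stood apart. In the R4 family of Rgs5, Rgs2 was the 1 of 6 called with MABs allo (2.96, adjusted p = 0.0131), against 12.3% of all genes. With MABs allo-VEGF 0 of these 6 were called in all samples and 1 rose in the 22.

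Lists for the other cells of the urethra moved in these libraries too, where 9.4% of all genes rose and 2.86% fell with MABs allo at 3d. With MABs allo at 3d, 0 of 14 endothelial genes rose and 5 fell (median -0.97), their sum being 6866 to 13092 normalized counts against 11694 to 25493 with saline. Of 9 satellite cell and myoblast genes 4 rose and 0 fell (median 1.55), and 5 rose in the 22 samples, where 18.1% of all genes were called. Of 9 mature skeletal muscle genes 2 rose and 0 fell (median 1.30), but no mature muscle gene was called in the 22 samples. Of 14 smooth muscle genes 1 rose, of 13 epithelial genes 1 rose and of 10 Schwann cell genes 0 were called, and none of these fell. With MABs allo-VEGF no gene of these 6 lists, nor any myeloid or fibroblast gene, was called in all samples. Over the 22 samples, in which 13.6% of all genes were called, 4 of 14 endothelial and 4 of 14 fibroblast genes fell. In them 4 of 9 satellite cell and myoblast genes, 1 smooth muscle gene and 1 epithelial gene rose. No myeloid, Schwann cell or mature muscle gene was called there. Robo4 was at 0 in every group, with the same limit as for Cd248. The part of these cells in the values of the 9 markers was not tested.

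Whether the markers varied together between rats of the same group was examined with the group means removed. Of 36 pairs, 1 correlated with an adjusted p under 0.05 over the 24 samples, and it was negative: Alpl with Mcam, with Pearson's r of -0.734 (p = 0.00027; adjusted p = 0.00972) and Spearman's rho of -0.68 (p = 0.00091; adjusted p = 0.0295) by permutation within groups. Without the 2 samples farthest in Alpl, saline 7d replicate 1 and MABs allo 7d replicate 9, r was -0.732 (permutation p = 0.00226; adjusted p = 0.0497). In the 22 samples it was -0.692 (permutation p = 0.00206; adjusted p = 0.0641), which missed the threshold. These libraries also share differences in depth and in tissue makeup.

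Among pericyte markers, Cspg4 correlated with Mcam with r of 0.638 (permutation p = 0.00298; adjusted p = 0.0536) and rho of 0.675 (adjusted p = 0.0295), and with Rgs5 with r of 0.601 (permutation p = 0.00453; adjusted p = 0.0544) and rho of 0.59 (adjusted p = 0.031). Without the 2 samples farthest in Cspg4, r was 0.613 (permutation p = 0.00807; adjusted p = 0.0968) with Mcam. It was 0.284 (permutation p = 0.142; adjusted p = 0.476) with Rgs5, so that the second rested on those samples. In the 22 samples r was 0.624 (permutation p = 0.011; adjusted p = 0.132) with Mcam and 0.604 (permutation p = 0.00356; adjusted p = 0.0641) with Rgs5. Both pairs thus passed the adjusted threshold by Spearman alone. Pdgfrb and Cspg4, both used to define pericytes, had r of 0.0847 (permutation p = 0.683), and the channel pair Kcnj8 and Abcc9 0.225 (permutation p = 0.372), or 0.551 (permutation p = 0.00276; adjusted p = 0.0497) without the 2 samples farthest in Kcnj8. Over the 36 pairs the median r was 0.159.

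**Figure D5:**
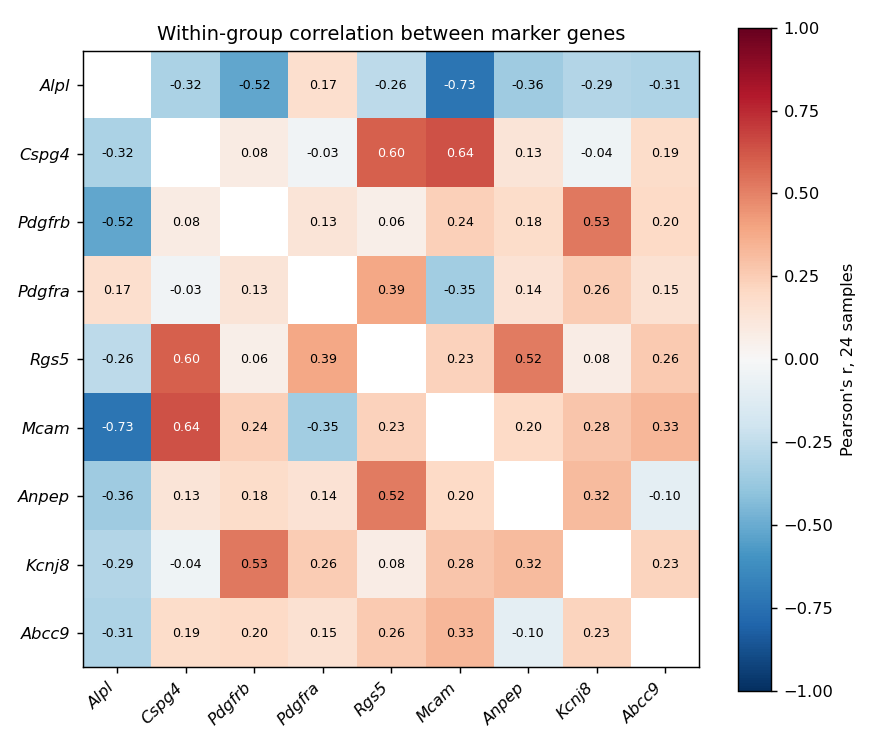
Pearson's r between each pair of the 9 markers over 24 samples, computed from log2(normalized count + 1) after subtracting the mean of each group; blue is negative and red positive. The 36 values run from -0.73 (Alpl with Mcam) to 0.64 (Cspg4 with Mcam).

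The genes most like each marker in this respect were sought among 11169 genes with a mean of at least 50 normalized counts, and are given as a description over 24 samples. They were Fadd, Cnot6l and Ctse for Alpl (r 0.86, 0.78 and 0.76), Ckb, Cpt1c and Lims2 for Cspg4 (0.86, 0.85 and 0.84), and Fam43a, Rassf1 and Sh2b3 for Pdgfrb (0.86, 0.84 and 0.84). For Pdgfra they were Lrp1, Susd3 and Igsf10 (0.86, 0.84 and 0.84), for Rgs5 Fam114a1, Tpp1 and Prph (0.83, 0.83 and 0.82), and for Mcam Prkab2, Dmpk and Speg (0.84, 0.84 and 0.83). For Anpep they were Etv1, Mgmt and Slco2b1 (0.87, 0.85 and 0.84), for Kcnj8 Aox1, Ypel4 and Fam89b (0.80, 0.77 and 0.76), and for Abcc9 Dennd4a, Avpr1a and Sbk2 (0.74, 0.73 and 0.72). No marker was among the 3 genes nearest to another marker.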

How the data were processed

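Rat urethra RNA was sequenced by the authors as 3′ mRNA libraries (QuantSeq), trimmed with fastq-mcf, aligned with HISAT2 to Rnor6.0 with multi-mapped reads discarded, counted with HTSeq and divided by DESeq2 size factors. The deposited values are thus a signal, normalized gene counts, and not raw counts. In every library 100% of the values were whole multiples (within 1e-06) of 1 read, worth 1.67 to 9.23 normalized counts, and the reads so recovered served the count tests. Groups and days were taken from the labels; nothing in them gives a batch or says how replicates were housed or prepared.

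Of 32883 genes, 16287 with a mean of at least 2 normalized counts were tested with limma 3.58.1 on log2(normalized count + 1), fitted to all 6 groups, since the values are not counts. Fold changes are on that scale and understate those of low genes. P-values were adjusted by Benjamini-Hochberg over all genes, and a call needed an adjusted p under 0.05 with a log2 fold change beyond 1. DESeq2 1.42.0 and edgeR 4.0.16 on recovered reads were alternatives. Of the 9 markers, Anpep changed the most with MABs allo against saline at 3d, at -1.30. How often changes of this size or smaller are called in these data was not tested. Correlations between markers used 100000 permutations of the samples within groups and adjustment over 36 pairs.

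Markers and lists were chosen with earlier results of these data known. The 9 markers were always named. Of other lists the text gives counts and up to 3 rises and 3 falls among the genes called at 3d, for the lists on mural and mesoangioblast genes, and for each marker the 3 genes most like it. No coordinates of Rnor6.0 were used here. The promoters of Pdgfrb and Mcam are not shown.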

Additional observations from a re-analysis of the deposited data

Results flagged for a closer look

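In 5 of 54 sets of 4 libraries (9 markers in 6 groups) 1 library lay far from the other 3 by Dixon's test, where chance gives about 1 in 20. Saline 3d replicate 8 was far above the others in Anpep (5103 against 2145 to 2386 normalized counts) and below them in Rgs5 (760.4 against 919.4 to 939.9). It was also the saline library lowest in epithelial and smooth muscle genes (4492 and 39694 normalized counts summed) and highest in Schwann cell genes (53950), and the part of these in its marker values was not tested.

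MABs allo 7d replicate 9 was above its group in Mcam (7341 against 3255 to 3777) and in Kcnj8 (546.4 against 377.7 to 390.3). Saline 7d replicate 1 was above its group in Pdgfra (2043 against 1253 to 1387).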

How the results depend on the processing

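Anpep kept its direction against saline with MABs allo at 3d in every alternative, and its call in all but those of the fit to the compared groups alone and the fit without saline 3d replicate 8. The number of markers called there was 1 of 9 in the main fit. It was 2, Anpep and Kcnj8, with edgeR, quantile normalization, scaling to the same total, the 22 samples (limma or DESeq2) or no minimum fold. It was 0 with only the groups compared and 0 to 2 with 1 library left out. Over all genes 1997 were called there in the main fit, 1468 with edgeR, 2228 with quantile normalization and 2123 with scaling to the same total. With MABs allo-VEGF at 3d, 0 became 1 with sample weights, 2 in the 22 samples and 3 with DESeq2 on them. Between days in saline, 1 became 0 with only the groups compared, in the 22 samples with limma (with DESeq2 it stayed 1) and without both libraries low in epithelium, and 0 to 1 with 1 library left out. With MABs allo between days, 0 became 1 with scaling to the same total (3982 of all genes called) or no minimum fold. With MABs allo-VEGF, 0 became 1 with that scaling (2467 of all genes called), sample weights and the 22 samples (limma or DESeq2). Both ranged over 0 to 1 with 1 library left out. The interaction for MABs allo went from 0 to 1 with DESeq2, sample weights and the 22 samples (limma or DESeq2), and that for MABs allo-VEGF to 2 with sample weights and 1 in the 22 samples (limma or DESeq2). Correlated pairs were 1 of 36 by Pearson, 3 by Spearman, 2 without the 2 farthest samples and 0 in the 22 samples. In settings whose calls over all genes are not given, the counts of markers cannot be set against a share of all genes. The cause of these changes in count was not tested.

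Changes near 0 turned sign. Rgs5 with MABs allo-VEGF at 3d was 0.02 in the main fit, -0.054 after quantile normalization, -0.22 after scaling to the same total, -0.36 with sample weights, -0.032 in the 22 samples, -0.38 without both libraries low in epithelium and -0.31 to 0.28 with 1 library left out. With 1 library left out, Cspg4 ran from -0.24 to 0.27 with MABs allo and from -0.27 to 0.11 with MABs allo-VEGF, and Alpl with MABs allo-VEGF from -0.046 to 0.754. The share of calls that were higher at 3d than at 7d moved from 73.7% to 54.2% with MABs allo and from 85.4% to 67.9% with MABs allo-VEGF under quantile normalization. With the replicate block, taking shared replicate numbers as a random block (correlation 0.133), Anpep was -1.30 (adjusted p = 0.00904) with MABs allo at 3d and no count of calls changed. The labels do not say that a number marks a shared animal or day. The residual correlations of same-numbered MABs allo and MABs allo-VEGF libraries at 3d were 0.222, 0.151, 0.073 and 0.254, against -0.225 to 0.2 (median -0.064) for 12 differently numbered pairs, and 6 of 8 libraries correlated best with their own number. This is a hint of shared variation, but 1 of the 4 was not over 0.1 and the samples were not taken as paired. The fewest reads behind a marker value were 23, for Alpl.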
